A study of Mus musculus with 20 samples.

Results

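Cox5a and Sdhd are nuclear genes for subunits of the mitochondrial respiratory chain, and their ribosome footprints were followed here across amino acid starvation and altered O-GlcNAc in mouse embryonic fibroblasts. The transcripts are ENSMUST00000000090 (Cox5a) and ENSMUST00000000175 (Sdhd), 2 of the 15354 Ensembl transcripts found in the deposited files. They were chosen by identifier, as transcripts with a short coding region that do not encode ribosomal proteins. The coding lengths, 441 nt for Cox5a and 480 nt for Sdhd, were recovered from the deposited values themselves, so the length is a criterion of the choice and not a result. The choice was also made with the starvation responses of these data known. The fitted values below therefore describe the transcripts and are not independent evidence. The gene names are those given with the identifiers, since no table used here pairs Ensembl transcripts with symbols. Other subunits of the respiratory chain, markers of fibroblasts and of other cell types, and Ogt itself were for that reason not analysed here.

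The respiratory chain passes electrons from NADH and succinate to oxygen, and the proton gradient it builds drives ATP synthesis. COX5A is a nuclear-encoded subunit of complex IV, cytochrome c oxidase, which reduces oxygen to water. SDHD is one of the membrane anchor subunits of complex II, succinate dehydrogenase, the enzyme that also serves the citric acid cycle. Both proteins are made on cytosolic ribosomes and imported into mitochondria.

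The cells were embryonic fibroblasts of strain C57BL/6J in 3 backgrounds. Control cells carry no stated treatment, Ogt knockout cells received 0.5 µM 4-OHT for 24 h and then fresh medium for 24 h, and a further set of cells received 0.1 µM Thiamet-G for 16 h. OGT attaches O-GlcNAc to proteins and Thiamet-G inhibits the enzyme that removes it. The labels give 4-OHT for the knockout only, so loss of Ogt and exposure to 4-OHT cannot be told apart. Each background was either fed or starved of amino acids for 2 h in DMEM containing DFBS, which the labels do not spell out. Ribo-seq, which sequences the fragments protected by ribosomes, comprised 12 libraries, 2 in each of 6 groups. The eIF3-80S assay, which sequences fragments from 80S ribosomes associated with initiation factor eIF3, comprised 8 libraries. Of these, 2 came from fed and 2 from starved control cells, and the knockout and Thiamet-G states had 1 library each. The comparisons ask how the footprint level of both transcripts differed with starvation, loss of OGT and inhibition of O-GlcNAc removal. No library measured RNA levels, so a change in the amount of transcript and a change in ribosomes per transcript cannot be told apart. Whether replicates were separate cultures is not in the labels, and p-values thus refer to library-to-library spread that may be technical only.

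Levels are given as RPKM, reads scaled to coding length and to the total of coding reads, and are relative to the other transcripts of the same library. A lower level can therefore reflect fewer footprints on the transcript or more on others, and in these bulk cultures fewer cells with the transcript and less RNA per cell cannot be told apart. Reads were recovered from the steps between RPKM values. Ribo-seq libraries held 844403 to 5846130 coding reads and eIF3-80S libraries 52148 to 359282. Each Ribo-seq group held 1 file numbered 1 and 1 file numbered 2 in the deposited file names. Transcripts with under 5 reads made up at most 0.08% of the first set and 14.06% to 21.51% of the second, so both sets differed in how low transcripts were listed. Replicates of the starved Thiamet-G group carry opposite numbers in titles and file names, and replicates are paired below by the file number.

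The RefSeq transcript starts of both genes lie on mouse chromosome 9 (build GRCm38.p6), matched by gene symbol. They are shown because transcripts of the translation machinery often begin with a C followed by a run of pyrimidines, the 5′ terminal oligopyrimidine motif, a group from which these transcripts were set apart. Each sequence runs 5′ to 3′ from 10 bases before the start to 20 bases from the start onward, and capitals mark the first 5 transcribed bases. The Cox5a window is chr9:57521222-57521251 on the plus strand and the Sdhd window is chr9:50603830-50603859 on the minus strand.
Cox5a: cccagcgtgcGTCGCtgcgtgagtccggcc
Sdhd: ttacgcggggCGGGActtactacataactg
Neither start holds a C followed by 4 pyrimidines (C or T, read on the transcribed strand from the annotated first base). Of 32851 RefSeq windows of the same length, 823 (2.51%) do. Cox5a begins with G, and Sdhd begins with C but has only 1 pyrimidine in the first 5 bases. A missing match says only that these letters are not at the annotated start, and the RefSeq start may differ from that of the Ensembl transcript. The Cox5a gene spans positions 57517328 to 57532427 and Sdhd positions 50596340 to 50603849 of the same chromosome in that annotation. The Cox5a start shown lies inside its gene span and not at the upstream end, and bases at any start further upstream were not examined.

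Both transcripts were among the more heavily read ones. Cox5a was listed in 12 of 12 Ribo-seq and 8 of 8 eIF3-80S libraries. Its mean Ribo-seq level of 1005 RPKM (SD 387, n = 12) was exceeded by 234 of 15351 transcripts. Sdhd was listed in 12 of 12 Ribo-seq and 7 of 8 eIF3-80S libraries. Its mean of 348 RPKM (SD 76.2, n = 12) was exceeded by 745 transcripts. Cox5a thus carried more footprints per length than Sdhd in each of the 12 Ribo-seq libraries, by 1.47-fold to 4.41-fold. Its level was also the more variable, with a coefficient of variation over all 12 libraries of 38.5% against 21.9% for Sdhd. Reads on Cox5a ranged from 189 to 3002 and on Sdhd from 135 to 802 in Ribo-seq.

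**Figure D1:**
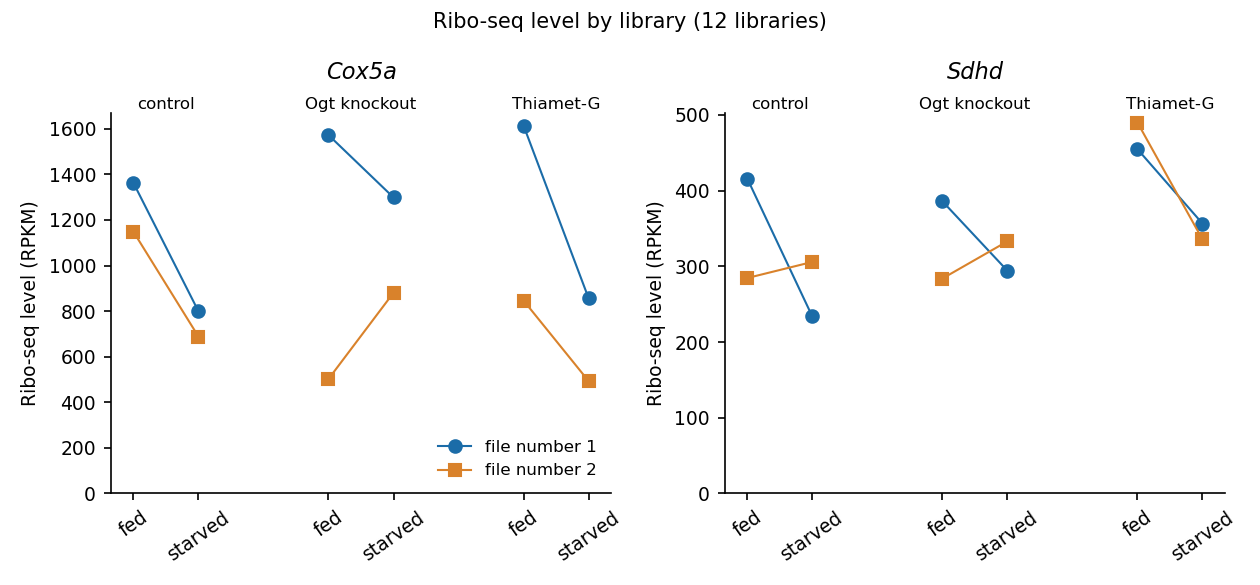
Ribo-seq level in RPKM (vertical axis) of Cox5a and Sdhd in the 12 libraries, by background and state, with lines joining the fed and starved library of the same file number. Cox5a was lower in the starved library of all 4 control and Thiamet-G pairs, while 1 knockout pair was lower and 1 higher.

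In control cells the Cox5a footprint level was lower after starvation. It was 1363 and 1149 RPKM in the fed libraries and 799 and 688 RPKM in the starved ones (file numbers 1 and 2). The groups did not overlap, and means were 1256 ± 152 and 744 ± 78.5 RPKM (SD, n = 2 each). The share of all transcripts without overlap was not counted, so this gap is not read as particular to Cox5a. In Thiamet-G cells Cox5a stood at 1614 and 846 RPKM when fed and at 857 and 493 RPKM when starved. The second fed library lay just below the first starved library, so these groups overlapped, although the starved library was the lower one in each pair with the same file number. The 4 pairs of control and Thiamet-G cells had log2 ratios of starved to fed, in RPKM as deposited, of -0.91 to -0.74, with a mean of -0.80 and an SD of 0.078. On the rescaled values used in the fits below, the same pairs ranged from -1.17 to -0.78, with a mean of -0.92 and an SD of 0.178. These 4 pairs leave out the knockout cells, whose pairs went in opposite directions. Over all 6 pairs the mean was -0.44 (SD 0.653) as deposited and -0.53 (SD 0.723) after rescaling.

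Knockout cells gave no common direction for Cox5a. The fed libraries differed by 3.13-fold, with 1573 RPKM under file number 1 and 502 RPKM under file number 2, the widest gap between replicates of the 6 groups. The starved libraries stood at 1299 and 881 RPKM and lay between the fed ones. The log2 ratio of starved to fed was -0.28 in the first pair and 0.81 in the second. Means were 1037 ± 757 RPKM fed and 1090 ± 296 RPKM starved (SD, n = 2 each), a difference smaller than the spread between replicates.

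Sdhd had smaller and less even differences. In control cells it was 416 and 285 RPKM in the fed and 234 and 306 RPKM in the starved libraries, with means of 350 ± 92.9 and 270 ± 51.0 RPKM (SD, n = 2 each). The groups overlapped, because the second pair was slightly higher when starved, while the first starved library had the lowest Sdhd level of the 12 libraries. In knockout cells Sdhd was 386 and 284 RPKM fed and 294 and 333 RPKM starved, and these groups overlapped in the same way. Thiamet-G cells were the exception for Sdhd. Their fed libraries, at 455 and 490 RPKM, were the 2 highest of the 12, and the starved libraries stood at 357 and 336 RPKM with no overlap. Here too the share of all transcripts without overlap was not counted. Means were 472 ± 24.9 and 346 ± 14.8 RPKM (SD, n = 2 each).

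The pairs differed by file set, again in RPKM as deposited. Among files numbered 1, Cox5a was lower in 3 of 3 starved libraries by a mean log2 value of -0.65, and Sdhd in 3 of 3 by a mean of -0.53. Among files numbered 2, Cox5a was lower in 2 of 3 by a mean of -0.24, and Sdhd in 1 of 3 by a mean of -0.07. The file number also moved with the level of Cox5a. Cox5a was higher under file number 1 in 6 of 6 groups, by 1.16-fold to 3.13-fold, whereas Sdhd was higher there in 3 of 6 groups. The same counts were not made over other transcripts, so they are not read as particular to these 2. The part of the file sets in the starvation values was not tested beyond these within-set values.

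Across all transcripts, limma fits of log2(RPKM + 1) after rescaling of each library, with 6 residual degrees of freedom, called neither transcript in any Ribo-seq contrast. For starvation averaged over the 3 backgrounds, the log2 fold change of Cox5a was -0.53 (SE 0.33, 95% interval -1.24 to 0.19, limma adjusted p = 0.664). For Sdhd it was -0.38 (SE 0.26, interval -0.95 to 0.19, limma adjusted p = 0.7). Of 10936 tested transcripts, 19 (0.174%) were called, and a count of 0 of 2 members lies at this background. The medians were -0.01 over all tested transcripts and -0.40 over the 1480 with a coding region of at most 600 nt. The estimates of both transcripts thus lay close to the median of other short coding regions. Of these, 39.7% had a lower value than Cox5a and 51.1% a lower value than Sdhd. This class is set by length alone, and transcripts of ribosomal proteins were not taken out of it. The file numbers were taken to pair the libraries. Each group holds 1 library of each number, so a block on them cannot move these estimates and alters only their errors. With the block the limma adjusted p for Cox5a was 0.387, and 100 transcripts were called. Leaving out 1 library moved the Cox5a estimate to as far as -0.79 (without fed knockout replicate 2) and -0.26 (without fed knockout replicate 1).

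Within single backgrounds, the starvation estimate for Cox5a was -0.87 (SE 0.57, interval -2.11 to 0.37) in control cells and -0.98 (SE 0.57, interval -2.22 to 0.26) in Thiamet-G cells. In knockout cells it was 0.26 (SE 0.57, interval -0.98 to 1.50). With the file numbers as a block the Thiamet-G interval was -1.94 to -0.01 (SE 0.45, unadjusted p = 0.0476 and limma adjusted p = 0.509 in the fit across all transcripts), which leaves out 0 by a small margin, and the control interval was -1.83 to 0.10. Sdhd gave -0.48 for control cells, -0.58 under Thiamet-G and -0.09 after knockout, each with an SE of 0.45. Single libraries weighed on these values. The control value of Sdhd was -0.14 without fed replicate 1 and -0.81 without fed replicate 2, and the Thiamet-G value of Cox5a was -0.52 without fed replicate 1 and -1.41 without fed replicate 2. Medians of the short coding regions were -0.70 for control cells, -0.46 under Thiamet-G and -0.01 after knockout. Limma called 0 of 10936 transcripts (0.0%) in each of these 3 contrasts, and 744, 653 and 99 had an unadjusted p under 0.05 in control, Thiamet-G and knockout cells. Without the block, limma adjusted p-values for Cox5a and Sdhd were at least 0.811.

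The difference in starvation response between knockout and control cells was tested as an interaction. For Cox5a it was 1.13 (SE 0.81, interval -0.63 to 2.88), and for Sdhd 0.39 (SE 0.64), both with a limma adjusted p of 1.0. The Cox5a interval reaches from a small negative to a large positive difference, so these libraries do not show that the responses were alike or unlike. The Cox5a estimate hung on the fed knockout libraries and was 0.35 without replicate 2 and 1.89 without replicate 1. The interaction with Thiamet-G was -0.11 for Cox5a and -0.10 for Sdhd. Limma called 0 of 10936 (0.0%) in either interaction, against 216 and 145 at an unadjusted p under 0.05.

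The O-GlcNAc backgrounds were also compared at a fixed nutritional state. Under feeding, knockout minus control was -0.64 for Cox5a (SE 0.57) and -0.21 for Sdhd (SE 0.45). The Cox5a value became 0.13 without fed knockout replicate 2, and the Sdhd value became 0.12 without fed control replicate 1 and 0.03 under quantile normalization. Thiamet-G minus control in fed cells was -0.11 for Cox5a and 0.44 for Sdhd (SE 0.45, interval -0.54 to 1.42). The Sdhd value accompanies the 2 highest Sdhd libraries named above. Under starvation, knockout minus control was 0.48 for Cox5a and 0.18 for Sdhd, and Thiamet-G minus control was -0.22 and 0.34. All of these had a limma adjusted p of 1.0. Limma called 0 of 10936 transcripts (0.0%) in each of the 4 contrasts, and 401, 51, 147 and 316 had an unadjusted p under 0.05 in the order given. The fed contrasts share the fed control libraries, and the starved contrasts share the starved control libraries. All of these control libraries also enter the starvation contrast of control cells.

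**Figure D2:**
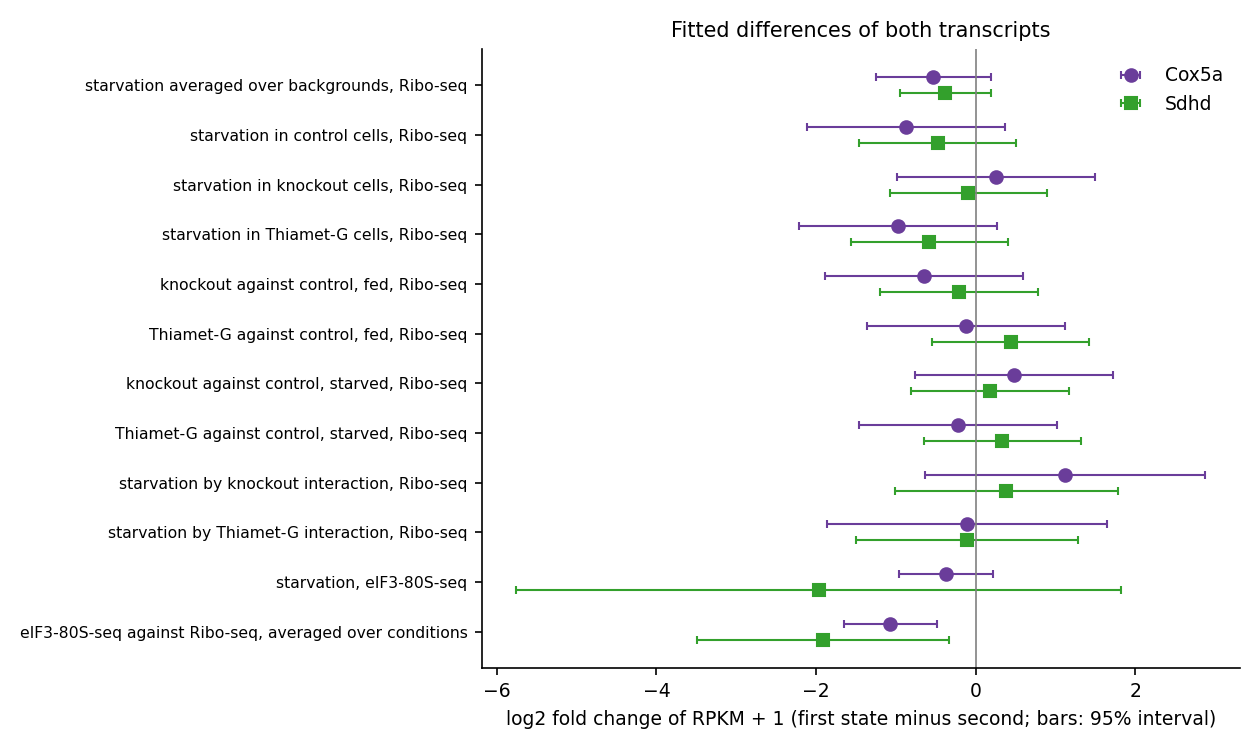
Fitted log2 fold changes of RPKM + 1 (horizontal axis) for Cox5a and Sdhd in the 12 comparisons, with bars for the 95% interval. The intervals of all 10 Ribo-seq contrasts and of eIF3-80S starvation cross 0, and both intervals of the assay comparison lie below 0, from -1.65 to -0.48 for Cox5a and from -3.49 to -0.34 for Sdhd.

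On eIF3-associated 80S ribosomes both transcripts were detected at low depth. Cox5a had 7 to 72 reads per library. Its level was 487 and 511 RPKM in fed control cells, 645 RPKM in fed knockout cells and 454 RPKM in fed Thiamet-G cells. After starvation it was 304 and 614 RPKM in control cells, 504 RPKM in knockout cells and 348 RPKM in Thiamet-G cells. The states overlapped, with means of 524 ± 83.8 RPKM fed and 442 ± 143 RPKM starved (SD, n = 4 each). The lowest value, 304 RPKM in starved control replicate 1, rests on 7 reads, and its 95% exact Poisson interval of 122 to 627 RPKM reaches above the mean of the fed libraries. Such intervals cover counting error only.

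Sdhd had 9 to 27 reads in the 7 eIF3-80S libraries that listed it. Its fed levels were 126 and 167 RPKM in control, 148 RPKM in knockout and 157 RPKM in Thiamet-G cells. Its starved levels were 145 RPKM in control replicate 2, 118 RPKM in knockout and 152 RPKM in Thiamet-G cells. These values spanned a narrow range and overlapped between states. Sdhd was not listed in starved control replicate 1, the shallowest library with 52148 coding reads. That file lists transcripts from 5 reads upward, so Sdhd had at most 4 reads there, which would be 160 RPKM, within the range of the other libraries.

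**Figure D3:**
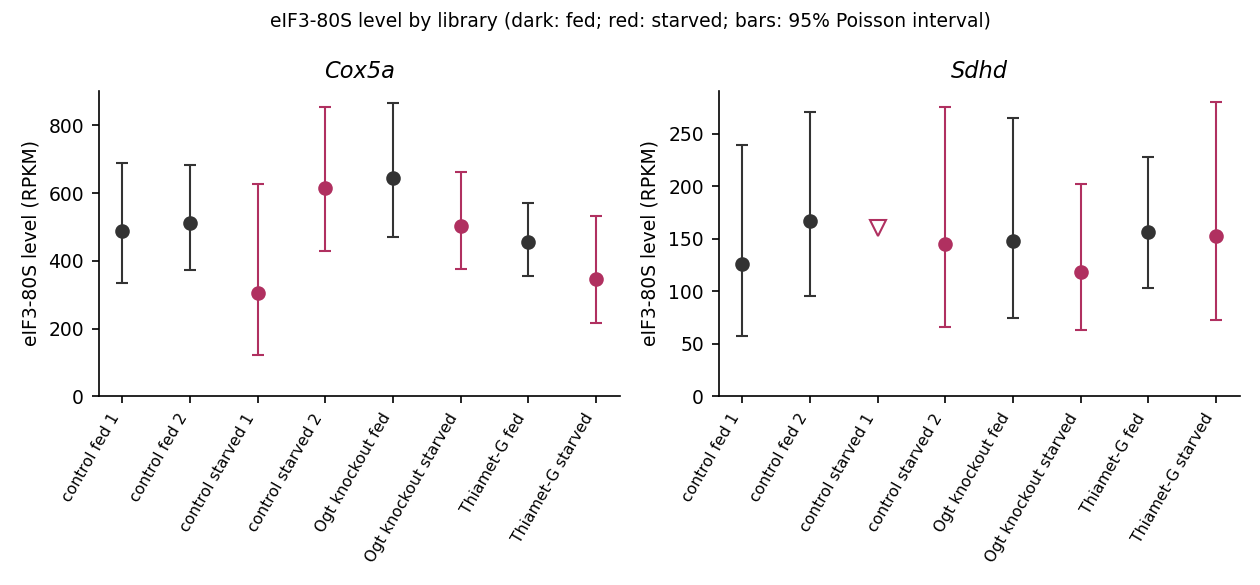
eIF3-80S level in RPKM (vertical axis) of Cox5a and Sdhd in each of the 8 libraries, with bars for the 95% exact Poisson interval, which covers counting error only. The open triangle is the upper limit of 160 RPKM for Sdhd in the library that does not list it, and fed and starved libraries overlap for both transcripts.

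An additive limma fit of background and starvation over the 8 eIF3-80S libraries, with 4 residual degrees of freedom, called neither transcript. The starvation estimate for Cox5a was -0.37 (SE 0.25, interval -0.96 to 0.22, limma adjusted p = 0.676). For Sdhd it was -1.97 (SE 1.58, limma adjusted p = 0.676) with the missing value taken as 0. Set at the limit of 4 reads, Sdhd gave -0.14 (SE 0.32, limma adjusted p = 0.875), and without that library -0.19, so the larger value came from the unlisted entry. Limma called 22 of 7734 transcripts (0.284%) in this contrast, all lower, against 9 higher and 14 lower under quantile normalization and 76 higher and 104 lower among 1679 transcripts listed in every eIF3-80S library. The median of all tested transcripts was -0.75, and that of 1033 short coding regions -1.27, with unlisted entries taken as 0 here too. Cox5a lay above both of these medians, but the order turned among those that, like Cox5a, were listed in all 8 libraries. There the medians were 0.03 over all and -0.22 over 303 short coding regions, and Cox5a at -0.37 lay below both. The rescaling rests on these same transcripts and holds their median near 0.

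Levels on eIF3-associated ribosomes were lower than in Ribo-seq for both transcripts. For Sdhd the libraries did not overlap, with 118 to 167 RPKM on eIF3-80S against 234 to 490 RPKM in Ribo-seq. For Cox5a they did, with 304 to 645 RPKM against 493 to 1614 RPKM. How many other transcripts had no overlap between assays was not counted. In 1 fit of all 20 libraries the difference averaged over the 6 conditions was -1.07 for Cox5a (SE 0.27, limma adjusted p = 0.00517). For Sdhd it was -1.91 (SE 0.72, limma adjusted p = 0.0405). With unlisted entries as 0, 5878 of 10542 tested transcripts (55.8%) were called, 334 higher and 5544 lower, so the members' calls lie near the background. This split depended on the setting. It was 357 higher and 338 lower among 1675 transcripts listed in all libraries, 1932 higher and 1494 lower under quantile normalization, and 143 higher and 366 lower of 9303 with limma-voom on recovered reads. The median of all tested transcripts was -1.53 and that of short coding regions -2.30. Of all tested transcripts, 62.5% had a lower value than Cox5a and 41.0% a lower value than Sdhd.

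The shift between assays depended on how shallow libraries and unlisted entries were treated. Over those listed in all 20 libraries, Cox5a had -1.07 (limma adjusted p = 0.00538), against medians of -0.03 over all of these and -0.72 over the 303 short coding regions among them. Cox5a thus lay below both medians of the transcripts seen in every library, but above the median of all tested transcripts, whose unlisted entries were taken as 0. The rescaling rests on the transcripts listed in every library and holds their median near 0. That set also favours transcripts with many eIF3-80S reads. Neither comparison therefore settles whether Cox5a was low on eIF3-associated ribosomes relative to other transcripts. Quantile normalization gave -0.44 (limma adjusted p = 0.267). The Sdhd call ended in 15 of 20 fits that left out 1 library, namely all 12 Ribo-seq libraries, both fed control libraries of eIF3-80S and fed Thiamet-G. With the unlisted entry at 4 reads the estimate was -1.31 (SE 0.25, limma adjusted p = 0.000895), and without that library -1.29 (limma adjusted p = 0.000355).

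The ratio of Cox5a to Sdhd within a library needs no scaling between libraries and shows whether the transcripts moved unequally. In Ribo-seq the mean was 3.07 ± 1.07 for fed libraries against 2.77 ± 1.02 for starved ones (SD, n = 6 each). The difference in mean log2 ratio was -0.15 (two-sided exact permutation test, p = 0.647, Benjamini-Hochberg adjusted p = 0.809 over 5 ratio tests). That test permuted libraries across file numbers, and the exact permutation within file numbers gave p = 0.595. Ratios under file number 1 ranged from 2.4 to 4.41 and under file number 2 from 1.47 to 4.04, with means of 3.52 ± 0.695 and 2.32 ± 0.942 (SD, n = 6 each). The highest ratio, 4.41, was in starved knockout replicate 1 and the lowest, 1.47, in starved Thiamet-G replicate 1.

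**Figure D4:**
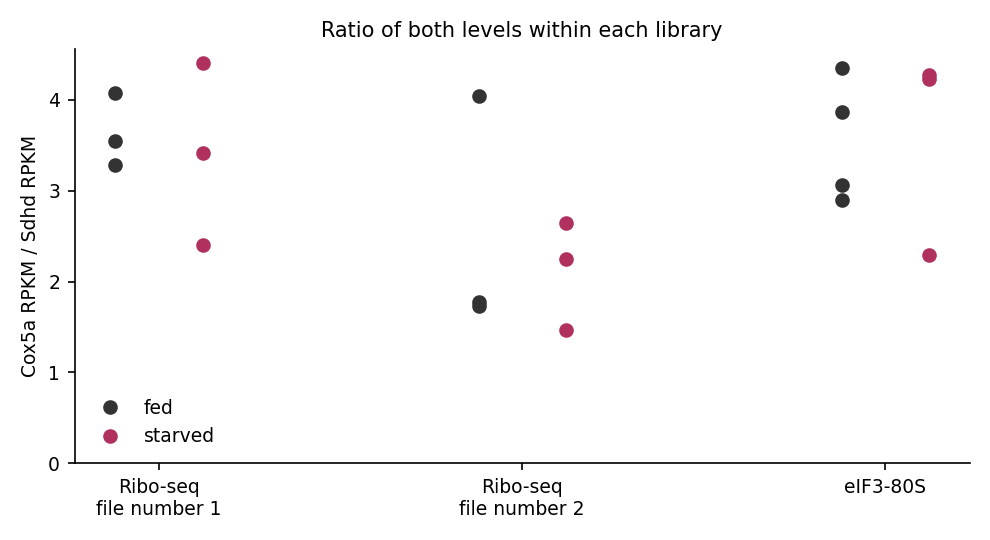
Ratio of Cox5a RPKM to Sdhd RPKM within each library (vertical axis), for the Ribo-seq libraries of each file number and for the 7 eIF3-80S libraries that list both transcripts. Fed and starved libraries overlap in each set, and in Ribo-seq the lowest ratios are from files numbered 2.

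Knockout and control libraries differed in mean log2 ratio by -0.07 (exact permutation test, p = 0.914, adjusted p = 0.914). Thiamet-G and control libraries differed by -0.56 (exact permutation test, p = 0.2, adjusted p = 0.5), with 4 libraries against 4, for which the smallest possible p is 0.0286. Exact permutation within file numbers gave p = 0.889 for knockout and p = 0.167 for Thiamet-G against control. On eIF3-associated ribosomes the ratio was 3.54 ± 0.684 in 4 fed libraries and 3.6 ± 1.13 in the 3 starved libraries that listed both. With the unlisted Sdhd entry as 0 the starved and fed eIF3-80S libraries differed by 1.60 (exact permutation test, p = 0.543, adjusted p = 0.809). That sign turned to -0.23 with Sdhd at 4 reads (exact permutation p = 0.514) and to -0.02 without the library (exact permutation p = 0.943). The eIF3-80S and Ribo-seq libraries differed by 1.14 (exact permutation test, p = 0.0329, adjusted p = 0.165), and by 0.34 without that library (exact permutation p = 0.159). None of the 5 ratio tests passed after adjustment.

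The profiles of both transcripts over the 12 Ribo-seq libraries were only loosely alike. Their log2 levels correlated at r = 0.43 (Pearson, n = 12 libraries, which share depth and file set), and Sdhd ranked 1655 of 10935 tested transcripts in its likeness to Cox5a. The transcripts most like Cox5a were ENSMUST00000132846 (r = 0.914, coding length 495 nt, mean 5447 RPKM) and ENSMUST00000041369 (r = 0.895, coding length 1611 nt, mean 41.6 RPKM). Those most like Sdhd were ENSMUST00000023225 (r = 0.942, coding length 1038 nt, mean 406 RPKM) and ENSMUST00000065134 (r = 0.923, coding length 1221 nt, mean 20.7 RPKM). The nearest neighbours were different transcripts for Cox5a and Sdhd. These correlations describe the libraries, with the closest transcripts picked from all tested ones.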

How the data were processed

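The authors deposited 1 file per library with Ensembl transcript identifiers and RPKM values. Tools and build named in the submitters' processing notes are cutadapt, STAR and GRCm38. The sources used here do not give the read counter, annotation release or listing rule. Per the labels' protocols, ribosome fractions were digested with RNase I and size-selected on gels, over a wider range for eIF3-80S than for Ribo-seq, so both assays sampled different fragments.

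Groups came from the titles. Whole reads, totals and coding lengths were recovered from ratios of RPKM values for 13278 of 15354 transcripts (relative tolerance 1e-09), and 99.79% of lengths were multiples of 3. Values were rescaled by median ratios, unlisted transcripts were taken as 0, and a mean of at least 1 RPKM was required before testing on log2(RPKM + 1), which understates changes of low transcripts. Limma 3.58.1 in R 4.3.3 was used (lmFit, eBayes with a trend, two-sided, Benjamini-Hochberg threshold 0.05). Scripts were tested on simulated data. Both members, the length class and the lists were chosen with earlier results of these data known. Named transcripts are both members and, for each, the 2 most correlated transcripts. Where a library was left out, a lone remaining library was assumed to vary like the other groups. No 2 libraries held identical values, and replicates differed beyond sampling noise. Ribo-seq libraries with the same file number deviated together from their group means, with correlations of 0.188 to 0.453 across transcripts for 15 of 15 group pairs. The numbers of the titles gave correlations over 0.1 in 10 of 15. Both file sets also differed in how low transcripts were listed, and unlisted ones entered as 0. The correlations thus show a difference shared within file sets. Whether same-numbered libraries were prepared together was not tested.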

Additional observations from a re-analysis of the deposited data

How the results depend on the processing

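No alternative called Cox5a or Sdhd in a starvation or background contrast of Ribo-seq (22 alternatives each) or in eIF3-80S starvation (16 and 15). The 16 for Cox5a include the fit with Sdhd at 4 reads, which altered only Sdhd and left Cox5a at -0.37. The averaged Ribo-seq starvation estimate ranged from -0.79 to -0.26 for Cox5a and from -0.49 to -0.27 for Sdhd, with limma adjusted p-values of 0.274 to 0.87 and 0.47 to 0.877. Limits are the 2 libraries per group, the 7 to 72 eIF3-80S reads on a transcript, and 1 unlisted entry. Causes were not tested unless stated.

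Transcripts called for averaged starvation (19) numbered 0 with a pseudocount of 0.1, without a filter or with quantile normalization, 34 among transcripts listed in every library, 49 with limma-voom on recovered reads, and 0 to 25 without single libraries. The replicate block gave 7 with the numbers of the titles and 100 with those of the file names, which became 104 among transcripts listed in every library and 379 with limma-voom. The paired fits changed no call of Cox5a or Sdhd in Ribo-seq, and by the balanced design blocks on log2 RPKM cannot move those estimates. With the file-number block, control starvation gave 9 among transcripts listed in every library and 223 with limma-voom, Thiamet-G starvation 13 and the knockout interaction 1 with limma-voom. The eIF3-80S starvation count (22) was 2 without rescaling, 180 among transcripts listed in every library, 4 with the title block, 185 with limma-voom and 0 to 2 without single libraries. The assay count (5878) was 3426 with quantile normalization, 695 among transcripts listed in every library (fewer tested) and 509 with limma-voom.

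Cox5a between assays lost its call under quantile normalization (-0.44, limma adjusted p = 0.267) and limma-voom (-1.06, limma adjusted p = 0.151). Sdhd lost its call with a pseudocount of 0.1 (-2.19, limma adjusted p = 0.106), no filter (-1.91, 0.0648), no rescaling (-1.84, 0.0548), quantile normalization (-1.21, 0.0674), the title block (-1.61, 0.0947) and limma-voom (-1.35, 0.0508), and ranged from -2.49 to -1.29 without single libraries. It has no value among transcripts listed in every library.

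Without single libraries, signs turned within these ranges. Starvation in knockout cells gave -0.52 to 1.04 for Cox5a and -0.27 to 0.088 for Sdhd. Fed knockout against control gave -1.41 to 0.13 and -0.55 to 0.12, with 0.031 for Sdhd under quantile normalization. Fed Thiamet-G against control gave -0.56 to 0.33 for Cox5a, and starved -0.48 to 0.032. Starved knockout against control gave -0.002 to 0.37 for Sdhd. The Thiamet-G interaction gave -0.54 to 0.34 for Cox5a and -0.44 to 0.23 for Sdhd. The ratio of Cox5a to Sdhd gave -0.30 to 0.018 for Ribo-seq starvation, -0.25 to 0.19 for knockout against control and -0.017 to 2.34 for eIF3-80S starvation, which was -0.23 with Sdhd at 4 reads, a setting added after the data were seen.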
